A study of Rattus norvegicus with 6 samples.

Results

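CCN1 to CCN5 are secreted matricellular proteins, and the 5 genes that encode them in the rat (Ccn1, Ccn2, Ccn3, Ccn4 and Ccn5) were followed in messenger RNA from mesenchymal stem cells, which are stromal cells of the marrow that grow attached to the dish. The genes were chosen by their symbols, 5 of the 23091 genes in the deposited table, with earlier results of these data known. Each symbol stood on a single gene identifier, so the summed counts set aside for choosing between identifiers decided nothing. All samples were wild-type rat cells held for 7 days in a medium for neural differentiation. The 3 CYSP samples received a treatment that the labels name only by those letters, and the 3 CK samples received the solvent DMSO. The labels do not say whether samples came from separate cultures or animals, nor from how many rats the cells came, so p-values set differences against a spread that could be technical only.

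Matricellular proteins sit in the extracellular matrix without building it, and pass signals by binding integrins, proteoglycans, growth factors and matrix proteins. A CCN protein is a string of cysteine-rich modules, related to insulin-like growth factor binding proteins, von Willebrand factor type C, thrombospondin and the cysteine knot of some growth factors, and CCN5 lacks the cysteine knot. Ccn1 (older symbol Cyr61) and Ccn2 (Ctgf, connective tissue growth factor) are textbook targets of the co-activators YAP and TAZ with TEAD factors, and also respond to TGF-beta and to serum response factor. Ccn4 and Ccn5 (Wisp1 and Wisp2) were described as genes induced by Wnt1, and Ccn3 (Nov) as a gene overexpressed in nephroblastoma. In stromal and skeletal cells the family is known for its parts in adhesion, matrix production, bone and cartilage formation.

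Since Ccn1 and Ccn2 are textbook TEAD targets, the stretch just before their transcription starts is shown for both. Promoter windows were available for these 2 of the 5 genes, from RefSeq on the GRCr8 build, and each runs from 250 bases before the start to 50 after it. Capitals mark GGAATG, the core of the TEAD site, in either orientation (CATTCC on the opposite strand), and TATAAA, the TATA box. The Ccn1 window lies on the minus strand at chr2:237225640-237225939 and the Ccn2 window on the minus strand at chr1:22624565-22624864.
Ccn1: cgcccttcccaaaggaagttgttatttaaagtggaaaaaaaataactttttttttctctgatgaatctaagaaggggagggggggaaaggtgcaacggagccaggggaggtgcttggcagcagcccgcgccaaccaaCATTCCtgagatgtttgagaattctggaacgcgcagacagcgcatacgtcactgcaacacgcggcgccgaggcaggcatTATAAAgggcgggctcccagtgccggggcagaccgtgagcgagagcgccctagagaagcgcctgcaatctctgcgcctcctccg
Ccn2: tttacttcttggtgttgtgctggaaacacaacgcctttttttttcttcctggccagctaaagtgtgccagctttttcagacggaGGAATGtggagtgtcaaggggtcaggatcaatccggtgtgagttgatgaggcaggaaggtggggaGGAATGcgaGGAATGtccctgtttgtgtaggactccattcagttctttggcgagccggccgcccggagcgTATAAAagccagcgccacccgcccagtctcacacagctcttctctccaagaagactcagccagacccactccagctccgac
The Ccn1 window holds GGAATG once, on the opposite strand and beginning 113 bases before the start, and the Ccn2 window holds it 3 times, beginning 166, 101 and 92 bases before the start. TATAAA begins 34 bases before the start in Ccn1 and 31 in Ccn2. Of 33469 rat promoter windows of this length, 14.2% hold GGAATG at least once, 0.0956% hold it 3 times or more, and 2.15% hold both GGAATG and TATAAA. A further 4 sequences were searched on both strands and found in neither window, namely CTTTGAT (TCF/LEF), TGACGTCA (CREB), GTCTAGAC (SMAD) and the CArG box of serum response factor, which 3.63%, 1.83%, 0.197% and 1.64% of all windows hold. Only full matches were counted, so shorter or variant forms of these sites were not looked for. A match of letters is not evidence of binding, and these windows were not measured for it here.

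The libraries held 15060933 to 17040293 counts in CYSP and 15459099 to 17244700 in CK, so that a gene with 0 counts could still have had up to 0.176 to 0.199 CPM in CYSP and 0.174 to 0.194 CPM in CK (3 counts, scaled to library size as CPM, and covering counting error only). Of 8 stromal markers Thy1, Cd44, Cxcl12 and Pdgfra were expressed in both groups, while Lepr, a receptor of marrow stroma, averaged 0.833 ± 0.273 CPM in CYSP and 0.776 ± 0.173 CPM in CK (SD, n = 3 each). Of the 12623 genes that passed the count filter, 76.1% passed an adjusted p of 0.05 in edgeR's quasi-likelihood test between CYSP and CK, 38.2% of them higher in CYSP and 37.8% lower, both as shares of all tested genes.

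All 5 CCN genes were lower in CYSP than in CK, by very different amounts. Ccn5 was at 0.308% of its CK level, Ccn1 and Ccn2 were at 4.21% and 5.77% of their CK level, and Ccn4 and Ccn3 differed less. All 5 passed the count filter, 5 of 5 were called lower against a background of 37.8% of tested genes, and in 5 of 5 every CYSP sample lay below every CK sample, which held for 38.2% of tested genes. Both shares rest on 5 genes chosen with results known, so they describe these genes and support nothing further. In bulk RNA, fewer cells that express a gene and less RNA per cell cannot be told apart. All samples were taken after 7 days, with none from the start. A fall in CYSP and a rise in CK therefore cannot be told apart either.

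**Figure D1:**
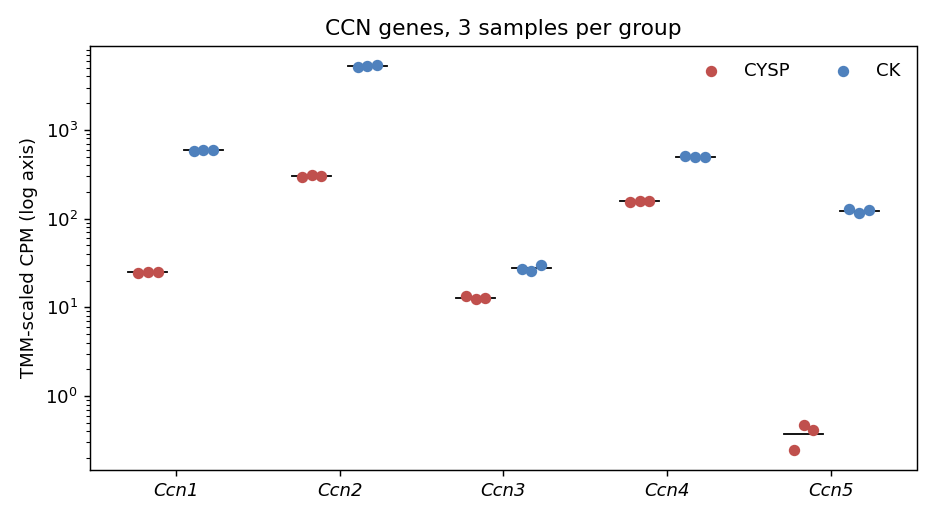
TMM-scaled CPM on a log axis for each CCN gene, with 1 point per sample, CYSP left and CK right, and a line at each group's mean (n = 3 each). No gene's groups overlap, and the gap is widest for Ccn5, at 0.375 CPM in CYSP and 123 CPM in CK, and narrowest for Ccn3, at 12.9 CPM in CYSP and 27.7 CPM in CK.

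Ccn2, which encodes the profibrotic and chondrogenic protein CCN2, was the most abundant member in both groups. It had 295, 313 and 298 CPM in the CYSP samples, against 5163, 5189 and 5362.5 CPM in the CK samples. The groups lay far apart, and within each the samples differed by a few percent (coefficients of variation of 3.16% in CYSP and 2.07% in CK). Its log2 fold change was -4.12 (SE 0.027, edgeR adjusted p = 1.46e-91), so CYSP samples were at 5.77% of the CK level. By FPKM, which allows for transcript length, it ranked 474 to 507 among the 23091 genes of a CYSP sample and 19 to 20 in a CK sample.

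Ccn1, which encodes an adhesive protein that drives angiogenesis and the differentiation of cartilage and bone cells, had 24.5, 24.7 and 24.9 CPM in the CYSP samples, against 574, 589.7 and 597 CPM in the CK samples. All CYSP samples were low and nearly equal, and their coefficient of variation, 0.787%, was below the 5.14% that counting alone gives at a mean of 378 counts. The log2 fold change was -4.57 (SE 0.042, edgeR adjusted p = 4.67e-81), a level 23.7-fold lower in CYSP. Its FPKM rank was 4663 to 4704 in CYSP and 174 to 183 in CK.

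Ccn5, whose protein lacks the cysteine knot and restrains the growth of smooth muscle cells, showed the largest change of the 5. It had 4, 7 and 6 counts in the CYSP libraries, against 2281, 1816 and 2074 counts in the CK libraries, or 0.375 ± 0.119 CPM in CYSP and 123 ± 7.65 CPM in CK (SD, n = 3 each). All CYSP samples were near the limit of detection, and their coefficient of variation of 31.7% was within the 42% that counting alone gives at this depth. The log2 fold change was -8.34 (SE 0.12, edgeR adjusted p = 3.18e-66), which placed Ccn5 at rank 23 of 12623 tested genes from the most lowered. With 17 counts over the CYSP group and 6171 over the CK group, the ratio of CK over CYSP was 332, with a 95% Clopper-Pearson counting interval of 207 to 570.2, so the SE of the fit understates the error of the size. The rank by FPKM was 12372 to 13058 in CYSP and 737 to 867 in CK.

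Ccn4, which encodes a protein that promotes the osteogenic differentiation of marrow stromal cells, had 154, 158 and 156 CPM in the CYSP samples, against 512, 488 and 499 CPM in the CK samples. The samples of each group lay close together and the groups did not overlap. The log2 fold change was -1.68 (SE 0.033, edgeR adjusted p = 4.92e-58), so CYSP samples were at 31.3% of the CK level.

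Ccn3, whose protein opposes CCN2 in several tissues and inhibits osteogenic differentiation, was the least abundant member in CK and changed least. It had 13.5, 12.2 and 12.8 CPM in the CYSP samples, against 27.3, 25.9 and 30.0 CPM in the CK samples. The samples of CK spread more widely than for Ccn4, with a coefficient of variation of 7.5%, and the groups still did not overlap. The log2 fold change was -1.11 (SE 0.095, edgeR adjusted p = 9.42e-18), so CYSP samples were at 46.5% of the CK level. This call ended when the change was tested against a log2 fold change of 1 with glmTreat (adjusted p = 0.19) and when a coefficient of variation of 0.4 was assumed between samples (adjusted p = 0.088), whereas the other 4 genes kept theirs.

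**Figure D2:**
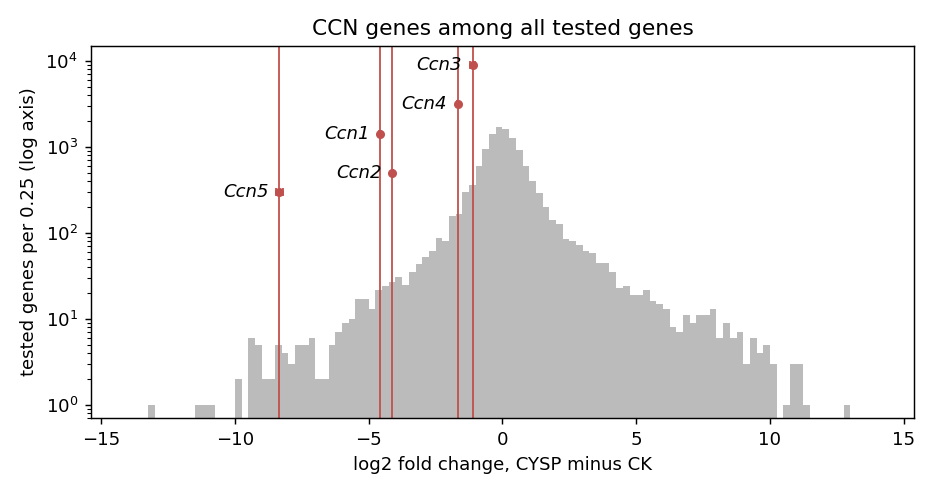
Histogram of log2 fold changes (CYSP minus CK) of the 12623 tested genes, with the number of genes on a log axis, and the 5 CCN genes as red lines with points and SE bars, most of them smaller than the points, whose height has no meaning. All 5 lie left of 0, with Ccn5 at -8.34, Ccn1 at -4.57, Ccn2 at -4.12, Ccn4 at -1.68 and Ccn3 at -1.11.

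From the most lowered gene, Ccn1 ranked 148, Ccn2 192, Ccn4 823 and Ccn3 1430 among the 12623 tested. The authors' deposited table gives log2 fold changes of mean FPKM of -8.33 for Ccn5, -4.65 for Ccn1, -4.2 for Ccn2, -1.74 for Ccn4 and -1.19 for Ccn3, in the same order. With scaling to library size only, the fitted values of all genes shifted by a median of -0.083, and those of Ccn1 and Ccn2 were -4.65 and -4.2.

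The members changed by different amounts, and the makeup of the family's RNA changed with them. The log2 ratio of Ccn1 to Ccn2 within a sample, from CPM with a pseudocount of 0.5, was -3.59 ± 0.047 in CYSP and -3.16 ± 0.018 in CK (SD, n = 3 each), a difference of -0.43 (SE 0.029). The ratio of Ccn3 to Ccn4 was -3.55 ± 0.089 in CYSP and -4.15 ± 0.1 in CK, a difference of 0.6 (SE 0.077). These were the smallest differences among the 10 pairs of members, and the largest, between Ccn3 and Ccn5, was 6.07 (SE 0.17). The pseudocount exceeds the 0.375 CPM of Ccn5 in CYSP and so compresses the pairs with Ccn5. With 0.1 CPM in its place this difference was 6.94, on FPKM with a pseudocount of 0.5 it was 5.49, and the fitted log2 fold changes of the genes were -1.11 and -8.34. In all 10 pairs the ratios of CYSP and CK samples did not overlap. An exact two-sided permutation test over samples gave p = 0.1 for each pair, also after Benjamini-Hochberg adjustment over the 10, which is the smallest value that 3 samples against 3 allow, so no pair could pass 0.05.

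Summed over the 5 genes, FPKM averaged 169 ± 4.8 in CYSP and 2474 ± 46.3 in CK, a sum 14.7-fold lower in CYSP. Ccn2 made up 63.2 ± 0.647% of that sum in CYSP and 79.1 ± 0.18% in CK, and Ccn1 made up 6.77 ± 0.156% in CYSP and 11.6 ± 0.156% in CK. The share of Ccn4 was 24.8 ± 0.484% in CYSP and 5.67 ± 0.142% in CK, although its own level was lower in CYSP. Ccn3 held 5.13 ± 0.384% in CYSP and 0.796 ± 0.0457% in CK, and Ccn5 held 0.131 ± 0.0456% in CYSP and 2.88 ± 0.177% in CK. The order of FPKM levels was Ccn2, Ccn4, Ccn1, Ccn3 and Ccn5 in CYSP, and Ccn2, Ccn1, Ccn4, Ccn5 and Ccn3 in CK. The nearest neighbours in these orders were Ccn1, at 11.3 to 11.5 FPKM, and Ccn3, at 8.24 to 9.04 FPKM, both in CYSP, and their samples did not overlap.

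**Figure D3:**
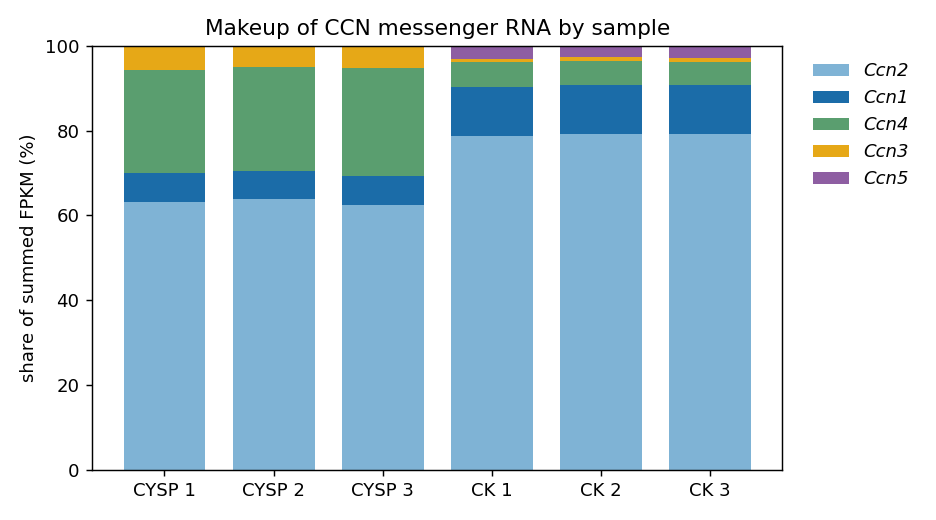
Share in percent of the summed FPKM of the 5 genes that each held in every sample, CYSP samples left and CK samples right. Ccn2 is the largest part in all 6 samples, Ccn4 averages 24.8% in CYSP and 5.67% in CK, and Ccn5 is too thin to see in CYSP.

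The deposited annotation gives all 5 genes the molecular function insulin-like growth factor binding, a term on 22 genes of the table, and places all 5 in the extracellular region. Heparin binding, integrin binding and growth factor activity are given there to Ccn2 and Ccn3 of the 5.

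Genes whose pattern over the 6 samples was nearest to each member were named by the Euclidean distance of centred log2 CPM, among 8393 genes with a mean of at least 10 CPM. With 2 groups this distance mostly measures the likeness of fold changes. Nearest to Ccn1 were Tpm1, a tropomyosin of actin filaments (distance 0.13), and Penk, the enkephalin precursor, followed by Tgfb3, a TGF-beta ligand, the proteoglycan gene Cspg4 and Timp3, an inhibitor of metalloproteinases. Nearest to Ccn2 were Thbs1, the matricellular protein thrombospondin-1 (0.11), at 1284 CPM in CYSP and 22756 CPM in CK, and Enpp1, which makes pyrophosphate, followed by the elastic fibre gene Fbln5, Pmaip1 and P4ha3. Ccn4 stood nearest to Fermt2, the integrin activator kindlin-2 (0.05), and Olfml2b, Adcy7, Serpinh1, the collagen chaperone, and S100a10. Ccn3 stood nearest to Erbin (0.065), Tpbg, Wdr48 and Flnc. For Ccn5 no gene was as near, with Adamtsl3 at 0.53 and C1qtnf3 at 0.62, and then Afap1l2, Il1rl1 and Pappa2, of which all but Il1rl1 averaged under 1 CPM in CYSP. These genes met the mean of 10 CPM only through CK. Ccn5 had 17 counts over the CYSP group, so counting error weighs on its distances, and their size does not set its pattern apart.

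Genes around the family were read from lists chosen with earlier results known, some of which share members (Smad7, Igfbp3 and Crim1 stand on 2 lists each). Itgam, on the receptor list, also stands among the leukocyte markers below, and Nt5e, on the YAP/TAZ list, among the stromal markers. Over all tested genes 38.2% were higher in CYSP, 37.8% were lower and the median log2 fold change was 0.0046, which is the background for the count in each list. Of 14 genes for transcription regulators of Ccn1 and Ccn2, 9 were lower, 4 higher and 1 (Smad7) not past the threshold, with a median of -0.33. Smad7 was called lower with library size only. Yap1 was slightly higher (log2 fold change 0.17, at 215 ± 4.69 CPM in CYSP and 191 ± 6.21 CPM in CK), and its relative Wwtr1, which encodes TAZ, was lower (-0.43). The TEAD genes moved apart, with Tead4 at -2.98, Tead3 at -1.82 and Tead2 at 1.68, and Tead1, named after its values were seen, at -0.23. Tead1 was the most abundant of them, at 75.7 ± 1.11 CPM in CYSP and 88.6 ± 2.1 CPM in CK. Tead4 was the least abundant, at 0.557 ± 0.204 CPM in CYSP and 4.51 ± 0.361 CPM in CK. Hif1a, the oxygen-regulated factor, was higher at 2.46. The rest of this list was named after its values were seen. Srf (-1.11), its co-activators Mrtfa (-0.79) and Mrtfb (-0.24), Smad2 (-0.89) and Smad4 (-0.74) were lower, and Smad3 (0.93) was higher.

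Most tested genes on the lists of other YAP/TAZ targets and other TGF-beta targets were also lower in CYSP. Over all tested genes 37.8% were lower. No list was made of targets of serum response factor. The part of these pathways in the levels of Ccn1 and Ccn2 was not tested. Of 19 tested YAP/TAZ targets outside the CCN family 15 were lower, 2 higher and 2 not past the threshold, with a median of -1.44. Ccdc80, a secreted matrix protein, was at 218 ± 3.25 CPM in CYSP, against 9110 ± 298 CPM in CK. F3, tissue factor, had a log2 fold change of -3.34, Amotl2, an angiomotin that binds YAP, -2.91, and Tgfb2, a TGF-beta ligand, -2.75. The 2 higher were Dock5 (1.01) and Nt5e, the surface enzyme CD73 (0.87). Ankrd1, another textbook YAP target, stayed under the count filter with 3 counts over the CYSP group and 26 over the CK group.

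Of 16 TGF-beta targets outside the family 13 were lower, 2 higher and 1 not past the threshold, with a median of -1.77. The contractile genes Tagln and Acta2 had log2 fold changes of -11.27 and -10.99, and Tgfb1i1, a focal adhesion adaptor, -5.43. Comp, a cartilage matrix protein (5.36), and Lox, a collagen cross-linking enzyme (1.52), were higher. The ligand gene Tgfb1 was lower, at 44.5 ± 1.8 CPM in CYSP and 91.4 ± 3.82 CPM in CK. Wnt targets went largely the other way. Of 10 tested 7 were higher, 2 lower and 1 not past the threshold, with a median of 1.34. Lgr5, a Wnt-amplifying receptor, had a log2 fold change of 3.65, Ccnd1, cyclin D1, 3.35, and Axin2, the feedback inhibitor, 2.31, whereas Nkd2 had -2.73 and Myc -0.86.

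Of 15 tested receptors and co-receptors of CCN proteins 8 were lower, 6 higher and 1 (Notch1, a receptor for CCN3) not past the threshold, with a median of -0.48, beside 37.8% lower and 38.2% higher over all tested genes. Sdc4, the heparan sulfate co-receptor syndecan-4, was at 1073 ± 16 CPM in CYSP and 95 ± 6.37 CPM in CK. Lrp1, an endocytic receptor of CCN2, and Igf2r, the mannose 6-phosphate receptor, were higher, with log2 fold changes of 1.94 and 1.73. The integrin subunits are given in full, a choice made after their values were seen. Itgav was higher (0.52) and so was Itga5 (0.27), while Itgb3 (-1.46), Itgb2 (-1.39), Itga6 (-1.28), Itgb1 (-0.97), Itgam (-0.82) and Itgb5 (-0.48) were lower.

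Partners in the matrix and proteases were mostly higher. Of 6 tested matrix and junction partners 4 were higher and 2 lower, with a median of 1.01. Dcn, the small proteoglycan decorin that binds CCN2, was at 7848 ± 69.6 CPM in CYSP and 195 ± 5.29 CPM in CK, Gja1, the gap junction protein connexin 43 that binds CCN3, had a log2 fold change of 2.8, and Fn1, fibronectin, of 1.48. Acan, the cartilage proteoglycan aggrecan (-9.06), and Bgn, biglycan (-1.44), were lower. Of 6 tested genes for proteases reported to cleave a CCN protein 5 were higher and 1 lower, with a median of 3.42. The metalloproteinase genes Mmp13, Mmp3, Mmp9 and Mmp2 had log2 fold changes of 7.52, 5.46, 4.25 and 2.59, and Mmp7, the lower one, had 1 count over the CYSP group and 35 over the CK group.

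Of 8 tested growth factors and secreted signals reported to bind a CCN protein 4 were higher and 4 lower, with a median of -0.0042. Bmp2, a bone morphogenetic protein, had a log2 fold change of 4.68 and Slit3, a guidance ligand, of 1.19, while Tnfrsf11b, the decoy receptor osteoprotegerin, had -6.19 and Bmp4 -2.27. Of 11 tested genes that share the insulin-like growth factor binding protein module with the CCN family 6 were higher and 5 lower, with a median of 0.13. Igfbp5 (3.43) and the serine protease gene Htra3 (2.06) were higher, and Esm1 (-2.89), endocan, and Igfbp3 (-2.14) were lower. Over all tested genes 38.2% were higher and 37.8% lower. Igfbp7, 1 of the 6 higher, lost its call with library size only.

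**Figure D4:**
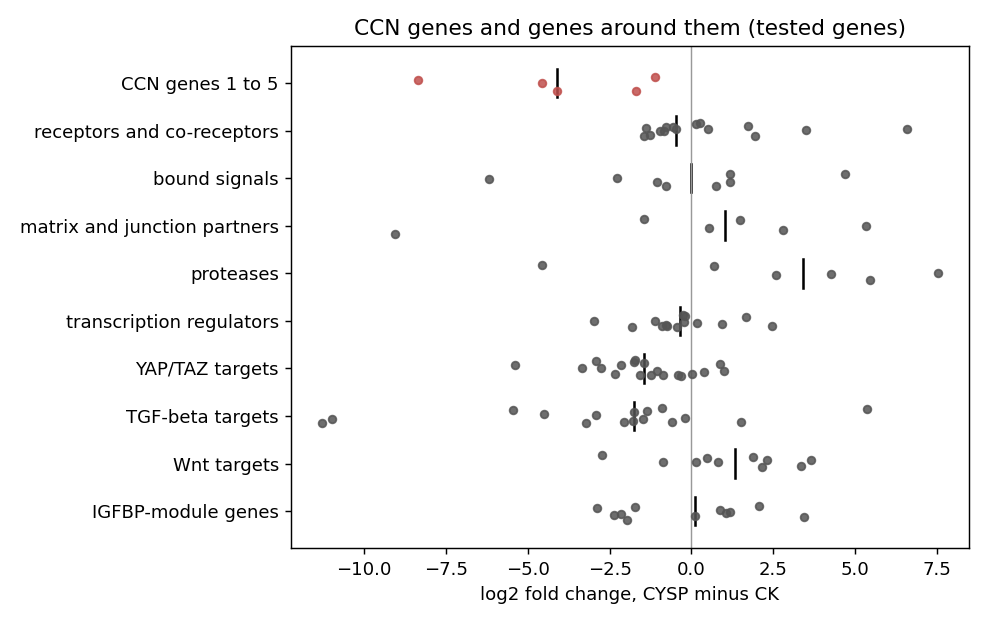
Log2 fold change (CYSP minus CK) of each tested gene, 1 point a gene with vertical scatter for legibility only, for the 5 CCN genes in red and 9 lists of genes around them in grey, and a black line at each median. The CCN genes, YAP/TAZ targets and TGF-beta targets lie mostly left of 0 (medians of -1.44 and -1.77 for those 2 lists), proteases and Wnt targets mostly right (3.42 and 1.34).

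Markers of other cell types also differed between the groups. Over all tested genes 38.2% were higher in CYSP and 37.8% were lower, which is the background for the counts that follow. Of 10 macrophage and leukocyte markers 8 were lower, 1 (Cd53) higher and 1 (Cd14) not past the threshold, none was at 0, and their summed level was 489 to 502 CPM in CYSP and 998 to 1131 CPM in CK. Of 8 stromal markers 6 were higher, 1 (Pdgfrb) lower and 1 (Lepr) not past the threshold, with a summed level of 2664 to 2698 CPM in CYSP and 1967 to 2041 CPM in CK. The 6 endothelial markers found summed to 2.43 to 3.14 CPM in CYSP and 5.98 to 6.66 CPM in CK, with Emcn at 0 in all samples. Of the 3 tested, Kdr was higher, with 58 counts over the CYSP group and 0 over the CK group. The 2 lower were Tie1 (49 counts over the CYSP group and 222 over the CK group) and Tek (9 and 77). The 8 neuronal markers summed to 85.8 to 90.7 CPM in CYSP and 14.2 to 14.9 CPM in CK. Of the 4 tested, Snap25, a vesicle fusion protein (48.8 ± 3.16 CPM in CYSP, 1 count over the CK group), and Tubb3, the neuronal beta-tubulin (log2 fold change 2.12), were higher, and Map2 (-1.65) and Dcx (3 counts over the CYSP group and 79 over the CK group) were lower, with Rbfox3 and Elavl4 at 0 in all samples. The part of these cells in the levels of the CCN genes was not tested.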

How the data were processed

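Poly(A) RNA from 3 CYSP and 3 CK samples was sequenced, and samples were grouped by their titles. The submitters' processing notes name RSEM, HISAT2, StringTie 1.3.1 and fastp 0.18.0 without saying what each did. Genome build, counting tool and use of strand are not stated in the sources used here. The deposited table gives read counts and FPKM per sample, per the file headers, with the authors' mean FPKM and log2 fold change. The authors' p-values, from a test not given in the sources used here, were not used.

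The deposited counts of all genes were fitted in R 4.3.3 with edgeR 4.0.16 (filterByExpr, TMM, robust quasi-likelihood test, Benjamini-Hochberg over 12623 genes, threshold 0.05). The fit was also run on simulated counts with 200 changed genes. That is far fewer than were called here, so the run cannot speak to data changed this widely. Of the other genes 6878 had no count and 3590 were under the filter. SEs derive from the fold change and F statistic, and CPM is TMM-scaled. Ratios between members used a pseudocount of 0.5 CPM. The members and lists were chosen with earlier results of these data known. From each list up to 4 called genes of largest change with a mean of at least 1 CPM were named, up to 2 of the direction with fewer calls, and fixed genes (Yap1, Wwtr1, Tgfb1, Axin2, Ccn6). Some genes that the rule takes are left unreported. Older symbols were allowed. Hspg2, Dkk1 and Cldn5 are not analysed here. Alternatives were other scalings, filters, tests (DESeq2 1.42.0, limma 3.58.1 on voom weights or log2 FPKM with pseudocounts of 1 and 0.1), leaving out each sample, blocking on the replicate number, glmTreat and an assumed coefficient of variation of 0.4.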

Additional observations from a re-analysis of the deposited data

How the results depend on the processing

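All 5 CCN genes were lower in CYSP under every alternative fitted and passed 0.05 except for Ccn3. Its log2 fold change stayed at -1.11 but missed the threshold with glmTreat against a log2 fold change of 1 (adjusted p = 0.19) and with an assumed coefficient of variation of 0.4 (adjusted p = 0.088). Those settings also lowered the counts of all genes, to 1504 higher and 1217 lower with glmTreat and to 1496 higher and 1209 lower with the assumed coefficient, from tests built to call fewer genes. With each sample left out in turn the log2 fold change ranged from -4.59 to -4.56 for Ccn1, -4.14 to -4.1 for Ccn2, -1.16 to -1.05 for Ccn3, -1.7 to -1.66 for Ccn4 and -8.54 to -8.09 for Ccn5, the last set by few counts. For Ccn5 the value was -5.89 on log2(FPKM + 1) and -7.82 on log2(FPKM + 0.1), since a pseudocount understates the change of a gene near 0. For the same reason the difference between Ccn3 and Ccn5 was 6.07 with 0.5 CPM and 6.94 with 0.1 CPM. No pair of members changed direction under any alternative. Replicate numbers gave no detectable pairing of the samples: deviations of same-numbered CYSP and CK samples correlated at 0.0044, -0.013 and 0.02 across 8535 genes, which are not independent replicates. The labels do not say whether equal numbers share a culture or animal, and these correlations cannot settle it. With the replicate block Ccn3 had -1.1 and all 5 genes stayed lower, with 4773 genes higher and 4712 lower in all. Depth limits Ccn5 most, at 17 counts over the CYSP group.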

Other observations

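Ccn6, the other member of the CCN family in the rat and not among the 5 followed here, was barely detected, with 0, 2 and 3 counts in the CYSP libraries and 0, 0 and 1 in the CK libraries. It stayed under the count filter and was not tested.

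Promoter windows of 9576 tested genes with a unique symbol were sorted by how often they hold GGAATG, a description made after the values were seen. Of 8547 genes with no match 38.4% were lower in CYSP, of 954 with 1 match 42.7%, and of 66 with 2 matches 43.9%. In the same order 37.9%, 34.4% and 34.8% were higher, and the median log2 fold changes were -0.0017, -0.082 and -0.0014. Of 9 genes with 3 or more matches, among them Ccn2, 2 were lower, and 9 genes are too few to read a share from. No test was made of these shares.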
